A study of Mus musculus with 2 samples.

Results

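Small leucine-rich proteoglycans (SLRPs) are matrix proteins built on a short leucine-rich repeat core. The 10 followed here were *Dcn* (decorin), *Bgn* (biglycan), *Lum* (lumican), *Fmod* (fibromodulin), *Kera* (keratocan), *Ogn* (osteoglycin), *Prelp*, *Podn* (podocan), *Aspn* (asporin) and *Omd* (osteomodulin). They were taken by gene symbol, and all 10 were found among the 24984 gene symbols of the feature list. Their UMIs (unique molecular identifiers, the tags that let each captured transcript be counted once) were read from 2 droplet libraries of hind limb muscle of the *mdx* mouse, which lacks dystrophin and whose muscle degenerates and regenerates repeatedly. Both groups were on the *mdx* background and both carried Pax7CreERT2/R26YFP, an inducible recombinase driven by the promoter of the satellite cell gene *Pax7* with a fluorescent reporter. Ctrl mice had Yy1+/+ alleles and dKO mice had Yy1f/f alleles, so that recombination removes the transcription factor gene *Yy1* from muscle stem cells (MuSCs) and not, by design, from the matrix-producing cells. Mice of both groups received tamoxifen at 100 mg/kg for 5 days at 1.5 months of age, and muscle was taken 1 month later. Living mononuclear cells of 3 mice were pooled into a single suspension per group, so there is 1 library per group, no replicate and no test of any difference. Muscle fibres are too large to be in such a suspension.

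SLRPs bind fibrillar collagens and set the diameter and spacing of the fibrils, and several of them bind growth factors of the TGF-β family. In muscle, the interstitial matrix is laid down mainly by fibro-adipogenic progenitors (FAPs), mesenchymal cells that multiply after injury and in fibrosis, and the tendon matrix by tenocytes. Decorin and biglycan carry chondroitin or dermatan sulfate chains, and fibromodulin, lumican, keratocan, osteoglycin and osteomodulin can carry keratan sulfate chains. The comparisons ask which cells of dystrophic muscle express each SLRP, and whether those levels differ in a muscle whose MuSCs have lost *Yy1*.

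After cells with under 500 genes and the 7.5% of cells with the highest doublet scores were left out, 4010 Ctrl and 3079 dKO cells remained, with a median of 7807 and 7852 UMIs per cell. The libraries shared 6 cell barcodes among these cells. Cells were clustered with all SLRP genes left out, and clusters were named from marker genes, for example *Pdgfra*, *Dpt* and *Smoc2* for FAP-like cells and *Tnmd*, *Scx* and *Thbs4* for tenocyte-like cells. FAP-like cells numbered 1080 in Ctrl and 1141 in dKO, which was 26.9% and 37.1% of all cells. Tenocyte-like cells numbered 135 and 91, smooth muscle/pericyte-like cells 121 and 35, endothelial (EC)-like cells 472 and 181, and monocyte/macrophage (MO/MP)-like cells 1419 and 1124. *Yy1* itself was at 162 counts per 1000000 UMIs of the class (CPM) in Ctrl MuSC-like cells and at 3.91 CPM, or 3 UMIs, in those of dKO (ratio 0.0241, 0.00494 to 0.0709), and at 122 and 132 CPM in FAP-like cells. Clusters were named by these markers, so their levels are a description. The 14 FAP markers summed to 16548 CPM in Ctrl and 19461 CPM in dKO in FAP-like cells, and the 7 tenocyte markers summed to 19034 and 20277 CPM in tenocyte-like cells.

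The SLRP transcripts were almost wholly mesenchymal. The 10 genes together gave 296537 UMIs in Ctrl and 275901 UMIs in dKO, or 0.729% and 0.905% of all UMIs of these cells. FAP-like cells held 78.0% of the SLRP UMIs in Ctrl (95% exact binomial interval 77.8 to 78.1) and 83.6% in dKO (83.5 to 83.8). Tenocyte-like cells held 16.7% and 12.6%, and all immune classes together held 0.628% and 0.349%. The larger FAP share of dKO went with a larger share of FAP-like cells in that library, and the pooled suspensions do not tell a change in cell number from a change in sampling. Intervals here and below cover counting error only, and UMIs from the 3 mice of a pool cannot be separated.

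**Figure D1:**
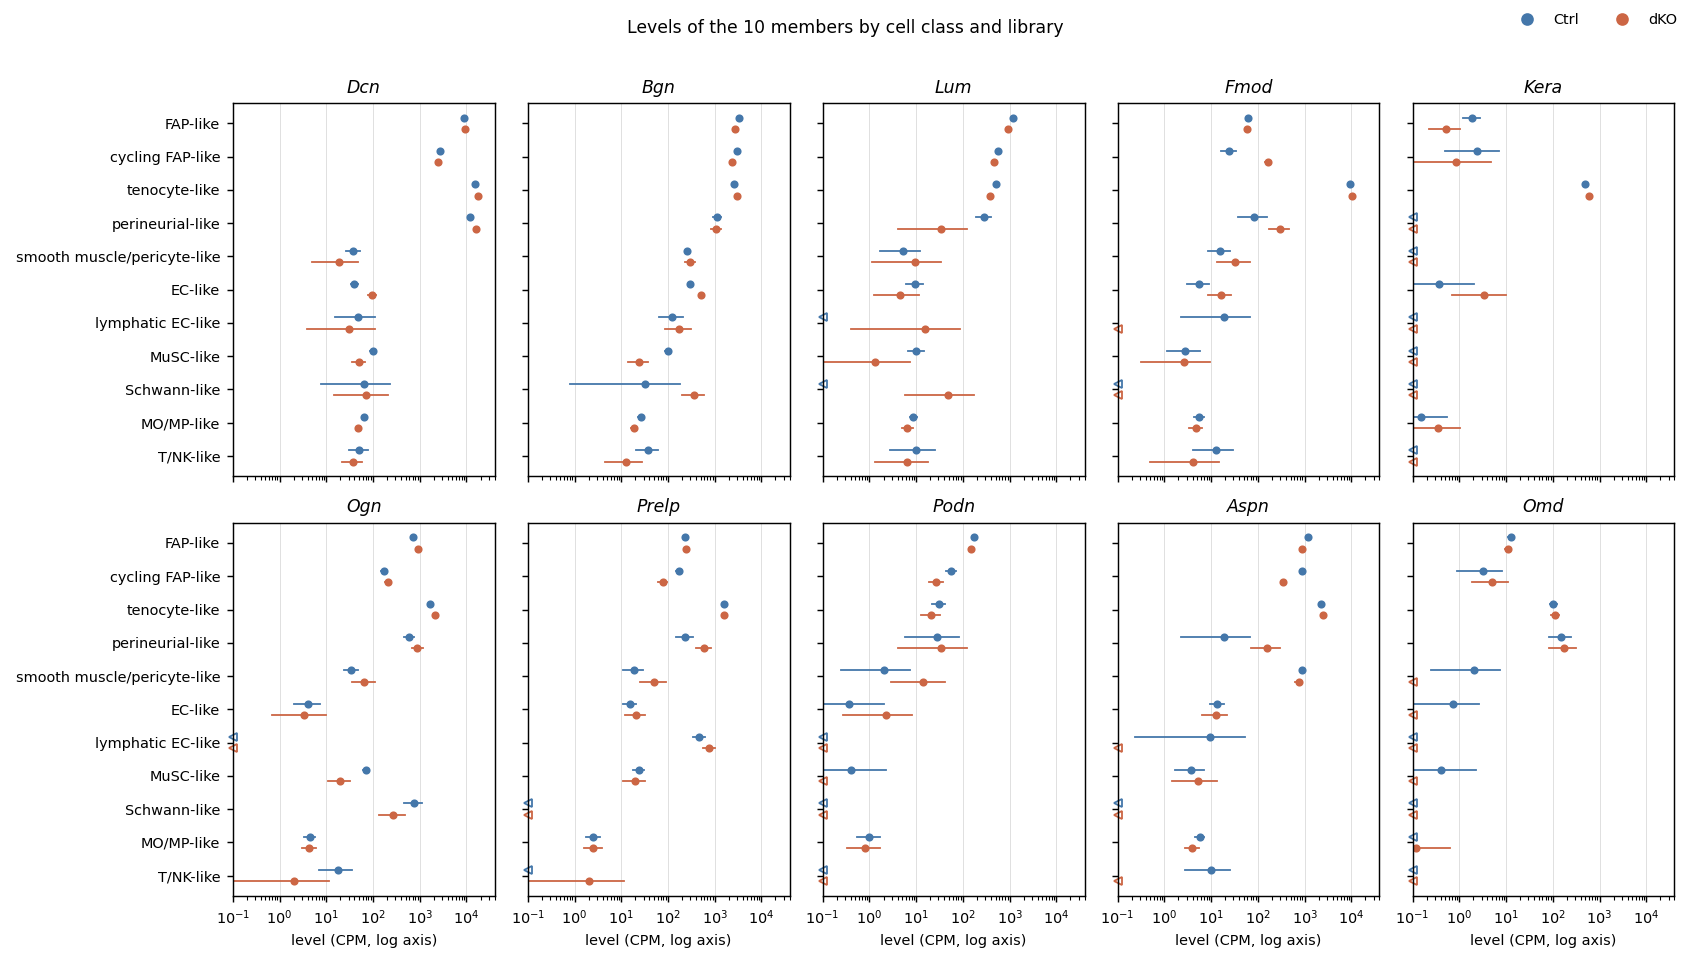
Level of each SLRP in 11 cell classes, in CPM on a log axis; blue points are Ctrl and orange points dKO, lines are 95% Poisson intervals and open triangles mark 0 UMIs. *Dcn* lies between 9032 and 17348 CPM in FAP-like and tenocyte-like cells, *Fmod* and *Kera* stand high in tenocyte-like cells, *Aspn* is high in smooth muscle/pericyte-like cells and *Prelp* in lymphatic EC-like cells.

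By level, *Dcn* led in FAP-like cells and *Kera* was last, with the members spread over more than 3 orders of magnitude. CPM counts transcripts by their 3′ end, so levels of different genes can be set side by side without division by length. *Dcn* was at 9032 CPM in Ctrl (8983 to 9081) and 9312 CPM in dKO (9264 to 9361), which is 122 UMIs in an average Ctrl FAP-like cell. *Bgn*, the relative of decorin that can also act as a danger signal on Toll-like receptors, was at 3306 and 2698 CPM. These class I proteoglycans were the most abundant SLRP transcripts of the class in both libraries. *Lum*, a corneal and dermal keratan sulfate proteoglycan that limits fibril thickness, was at 1193 CPM in Ctrl and 937 CPM in dKO. *Aspn*, a relative of decorin that lacks the glycosaminoglycan attachment site and carries an aspartate stretch, was at 1164 and 869 CPM. *Ogn*, the class III member, was at 727 CPM in Ctrl and 913 CPM in dKO. The order of the middle group therefore differed between the libraries: *Lum* and *Aspn* stood above *Ogn* in Ctrl, whereas *Ogn* in dKO (898 to 929) lay between *Lum* (922 to 953) and *Aspn* (854 to 884), with overlapping intervals for *Ogn* and *Lum*. *Prelp*, which anchors basement membranes to the connective tissue beneath, was at 230 and 244 CPM. *Podn*, a class V member described in vessel walls and bone, was at 172 and 149 CPM. The remaining members were rare in FAP-like cells, with *Fmod* at 61.1 and 58.3 CPM, *Omd* at 13 and 10.9 CPM, and *Kera* at 27 and 8 UMIs in all.

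Shares of cells gave the same picture. After each cell was thinned to 2000 UMIs, a *Dcn* UMI was found in 99.2% of the FAP-like cells of Ctrl and 99.5% of those of dKO, against 9.0% and 9.5% of MO/MP-like cells, which should lack it. Before thinning, *Dcn* was found in 99.9% and 99.8% of FAP-like cells (median 11749 and 11872 UMIs per cell) and in 32.0% and 28.0% of MO/MP-like cells (median 7723 and 6831 UMIs). The thinned shares were 91.3% and 88.2% for *Bgn*, 76.0% and 67.7% for *Lum*, 63.9% and 56.8% for *Aspn*, and 60.6% and 64.9% for *Ogn*. A *Fmod* UMI was found in 6.2% and 4.4% of FAP-like cells and in 1.4% and 1.3% of MO/MP-like cells. Thinning left out 63 Ctrl and 54 dKO FAP-like cells and 148 and 112 MO/MP-like cells. For 9 of 10 members the share in FAP-like cells was above that in MO/MP-like cells in both libraries with intervals apart. The exception was *Kera*, found in 1 of 1017 thinned cells in Ctrl and 0 of 1087 in dKO. Taken as a limit of 3 counts, that 0 allows up to 0.276% of cells at this thinned depth. Unthinned, the dKO FAP-like cells held 8 *Kera* UMIs. Without thinning, *Kera* in FAP-like cells was 12.1-fold (3.04 to 105) the MO/MP-like level in Ctrl, from 27 and 2 UMIs, and 1.52-fold (0.365 to 8.89) in dKO. Of the SLRP UMIs of MO/MP-like cells, *Dcn* made up 53.8% in Ctrl and 53.7% in dKO, against 53.8% and 58.7% over all cells. *Bgn* made up 22.2% and 20.7%, against 19.3% and 17.2%, and *Fmod* 4.8% and 5.2%, against 5.06% and 3.86%. The make-up of the 2 was thus nearer in Ctrl than in dKO for these 3 members.

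Tenocyte-like cells carried the highest summed SLRP level and a different mixture. The sum was 34092 CPM in Ctrl (33792 to 34393) and 37917 CPM in dKO (37519 to 38318), which is 2.14 and 2.50 times the FAP-like sum. *Fmod*, which guides collagen fibril assembly and cross-linking in tendon, set the class apart. It was at 9601 CPM in Ctrl and 10333 CPM in dKO, 157-fold (147 to 168) and 177-fold (165 to 190) above FAP-like cells, and 135 of 135 cells in Ctrl and 90 of 91 in dKO had a UMI of it. Tenocyte-like cells held 92.9% and 88.9% of all *Fmod* UMIs. *Kera*, best known from the cornea, was at 491 and 602 CPM there, with 95.3% and 97.4% of all its UMIs in the class. *Fmod* and *Kera* were thus the members nearest to restricted to tenocyte-like cells in this sample.

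The other members were shared between the classes in graded fashion. *Omd*, a keratan sulfate proteoglycan of bone and tendon, was at 103 CPM in Ctrl and 111 CPM in dKO tenocyte-like cells, 7.95 and 10.2 times its FAP-like level. *Prelp* was at 1588 and 1552 CPM, 6.91 and 6.37 times the FAP-like level. *Ogn* was 2.26 and 2.34 times higher in tenocyte-like cells, *Aspn* 1.97 and 2.80 times, and *Dcn* 1.69 and 1.86 times. *Lum* and *Podn* ran the other way. *Lum* was 2.33 and 2.43 times higher in FAP-like cells, and *Podn* 5.67 and 7.17 times. *Bgn* did not keep an order, being 0.768 times the FAP-like level in Ctrl tenocyte-like cells and 1.11 times in dKO. Of the SLRP UMIs of tenocyte-like cells, *Dcn* made up 44.8% and 45.8%, and *Fmod* 28.2% and 27.3%, whereas in FAP-like cells *Dcn* made up 56.8% and 61.3% and *Bgn* 20.8% and 17.8%. Among the other SLRP genes, *Chad* (chondroadherin, a cartilage and tendon protein) had the tenocyte pattern as well, at 1253 and 1218 CPM in tenocyte-like cells against 1.44 and 1.84 CPM in FAP-like cells.

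Several SLRPs also marked vessel walls and nerve sheaths. *Aspn* was at 901 CPM in Ctrl (843 to 963) and 747 CPM in dKO (636 to 872) in smooth muscle/pericyte-like cells, and 117 of 121 and 31 of 35 cells had a UMI of it. It made up 70.8% and 60.5% of the SLRP UMIs of this class. *Bgn* was next at 257 and 297 CPM, and *Dcn* was only at 38.2 and 18.6 CPM, below the 62.8 and 48.7 CPM of MO/MP-like cells. The *Aspn* of mural cells was therefore not accompanied by *Dcn*, unlike that of FAP-like and tenocyte-like cells. At a finer clustering, *Aspn* was at 984 and 833 CPM in the *Myh11*-rich part (*Myh11* at 5101 and 4091 CPM), and at 778 and 177 CPM in the *Rgs5*-rich part, where dKO had 3 cells and 5 *Aspn* UMIs.

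**Figure D2:**
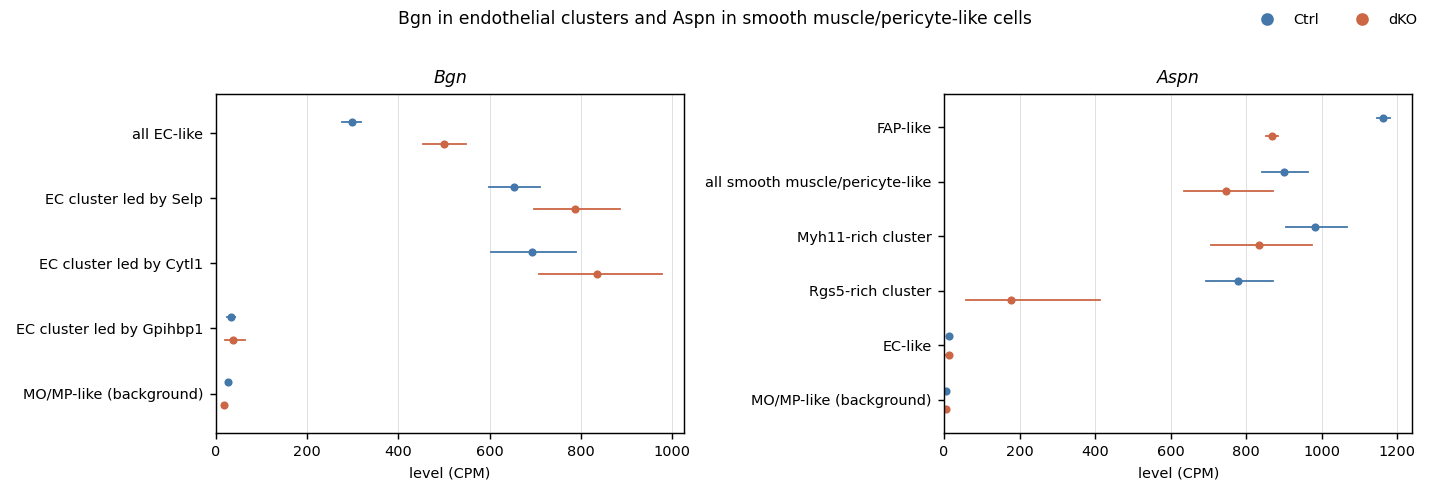
*Bgn* in clusters of EC-like cells and *Aspn* in mural, FAP-like and EC-like cells, with MO/MP-like cells as background; the axis is CPM, blue is Ctrl, orange is dKO and lines are 95% Poisson intervals. *Bgn* stands at 652 to 836 CPM in the *Selp*-led and *Cytl1*-led EC-like clusters and at 32.7 and 37.2 CPM in the *Gpihbp1*-led cluster.

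Within the endothelium, *Bgn* was the main SLRP, with 76.9% of the SLRP UMIs of EC-like cells in Ctrl and 76.0% in dKO. Its level depended on the kind of EC. *Bgn* was at 652 and 787 CPM in the cluster led by *Selp*, a selectin of venular endothelium, and at 692 and 836 CPM in the cluster led by *Cytl1*. In the cluster led by *Gpihbp1*, a capillary gene, it was at 32.7 and 37.2 CPM, near the 25.9 and 18.7 CPM of MO/MP-like cells. *Bgn* was not the main SLRP of that cluster, with 52 and 13 UMIs against 67 and 57 for *Dcn*. Lymphatic EC-like cells were few, 18 and 13, and had *Prelp* in place of *Bgn* as their leading SLRP. *Prelp* was at 465 CPM in Ctrl and 766 CPM in dKO there, in 14 of 18 and 11 of 13 cells, which is 183-fold (116 to 294) and 301-fold (179 to 523) the level of MO/MP-like cells. *Prelp* made up 70.0% and 77.8% of the SLRP UMIs of lymphatic EC-like cells.

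Perineurial-like cells, which wrap nerve bundles, numbered 15 in Ctrl and 10 in dKO and were rich in *Dcn*. *Dcn* was at 11828 CPM in Ctrl and 15811 CPM in dKO. *Omd* was at 149 and 172 CPM from only 16 and 10 UMIs, next to 103 and 111 CPM in tenocyte-like cells. With so few UMIs the 2 classes cannot be ranked for *Omd*. *Lum* was at 279 and 34.4 CPM, but 22 of the 30 Ctrl UMIs came from 1 cell. Schwann-like cells, 10 and 8 in number, had 23 and 11 *Ogn* UMIs, or 741 and 264 CPM, which lay in 5 and 2 cells. *Bgn* had 1 and 15 UMIs there, or 32.2 and 360 CPM, so *Ogn* was the leading SLRP in Ctrl only. These small classes are given as levels only.

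Comparing dKO with Ctrl in FAP-like cells, no SLRP with at least 100 UMIs was 1.5-fold apart over the whole class, and the members did not differ in one direction. The summed level was 15898 CPM in Ctrl and 15192 CPM in dKO, a dKO to Ctrl ratio of 0.956 (0.950 to 0.961). Among the 9 members with that many UMIs *Ogn* had the highest ratio, 1.26 (1.23 to 1.29), and *Aspn* the lowest, 0.746 (0.730 to 0.764). *Kera*, with 27 and 8 UMIs, had a ratio of 0.284 (0.111 to 0.642). *Lum* was at 0.786 (0.769 to 0.804) and *Bgn* at 0.816 (0.806 to 0.827) of the Ctrl level, and *Podn* at 0.866 (0.817 to 0.917). *Dcn* and *Prelp* were at 1.03 and 1.06 of the Ctrl level, but each turned to below 1 under 2 of 10 alternatives, at the lowest 0.968 and 0.956. The ratios of *Fmod*, 0.953 (0.868 to 1.05), and *Omd*, 0.836 (0.674 to 1.04), had intervals that included 1. None of the 9 was 1.5-fold apart, where 5.7% of the 10222 genes counted in FAP-like cells were. The members' median log2 ratio was -0.21, against -0.06 over all genes counted.

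**Figure D3:**
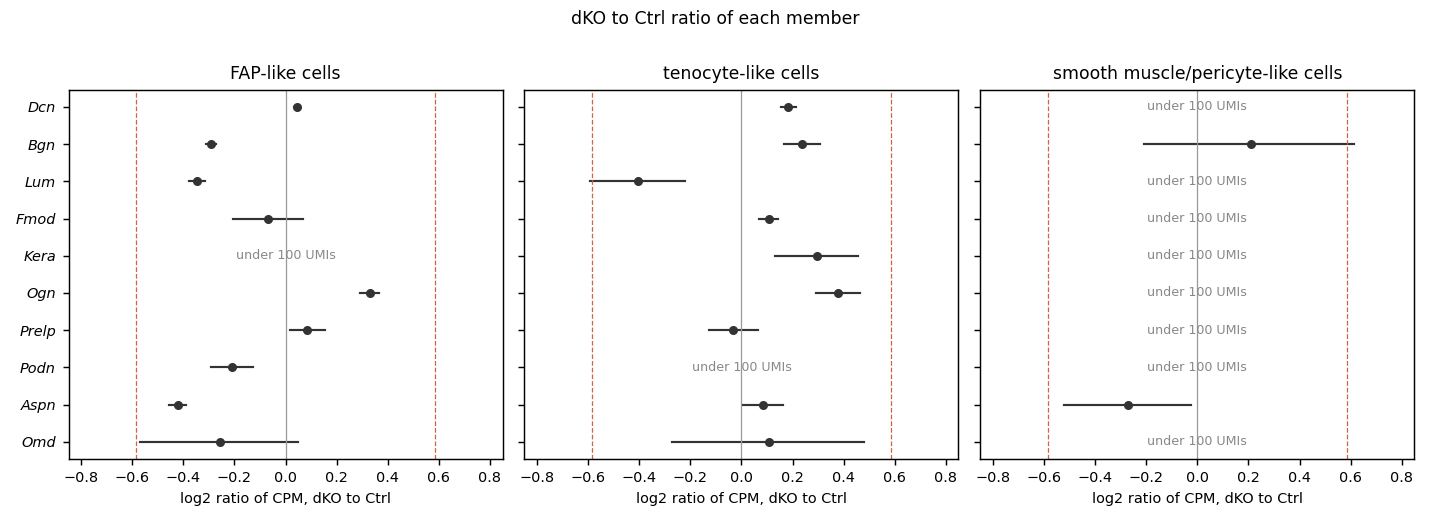
Ratio of the dKO to the Ctrl level of each SLRP in FAP-like, tenocyte-like and smooth muscle/pericyte-like cells, on a log2 axis with 95% counting intervals; dashed lines mark 1.5-fold, and members under 100 UMIs in a class are not drawn. In FAP-like cells *Ogn* lies above 0 at 0.33, *Aspn*, *Lum* and *Bgn* lie between -0.42 and -0.29, and no point in the 3 classes is past 1.5-fold.

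In tenocyte-like cells the summed level was 1.11 times the Ctrl level in dKO (1.10 to 1.13). *Ogn* again had the highest ratio, 1.30 (1.22 to 1.38), from 1645 to 2138 CPM. *Kera* was at 1.23 (1.10 to 1.37), *Bgn* at 1.18 (1.12 to 1.24), *Dcn* at 1.13 (1.11 to 1.16), *Fmod* at 1.08 (1.05 to 1.10) and *Aspn* at 1.06 (1.00 to 1.12). *Prelp* at 0.978 and *Omd* at 1.08 had intervals that included 1. Among the 9 members with at least 100 UMIs *Lum* was the lowest, at 512 CPM in Ctrl and 386 CPM in dKO, a ratio of 0.755 (0.663 to 0.858). A single dKO cell held 130 of the 354 *Lum* UMIs, and without the cell with the most *Lum* in each library the ratio was 0.545 (0.466 to 0.635). *Podn*, with 44 and 19 UMIs, had a ratio of 0.684 with an interval that included 1. None of the 9 members counted was 1.5-fold apart with all cells in, against 6.02% of 3073 genes. *Ogn* was thus higher in dKO and *Lum* lower in both main classes, whereas *Bgn* and *Aspn* were lower in dKO among FAP-like cells and higher among tenocyte-like cells, although *Aspn* in tenocyte-like cells was at 1.02 (0.963 to 1.08) without the top cells and at 0.957 at the lowest over the alternatives.

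In smooth muscle/pericyte-like cells the summed level was 1274 CPM in Ctrl and 1234 CPM in dKO, a ratio of 0.969 (0.846 to 1.11). *Aspn* had a ratio of 0.829 (0.696 to 0.982) and *Bgn* 1.16 (0.865 to 1.53). Neither of the 2 members counted was 1.5-fold apart, where 23.8% of 2025 genes were. *Rgs5* was lower in dKO within the *Myh11*-rich part too, at 7441 and 1805 CPM, with a UMI in 61 of 89 and 20 of 32 cells. The *Rgs5*-rich cells made up a smaller part of this class in dKO, 3 of 35 cells against 32 of 121, and the summed EC markers of the class were at 2892 CPM in Ctrl and 1179 CPM in dKO. Their part in these ratios was not tested.

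In EC-like cells *Bgn* was more than 1.5-fold apart between the libraries. *Bgn* was at 297 CPM in Ctrl and 499 CPM in dKO, a ratio of 1.68 (1.49 to 1.89), with a UMI in 165 of 472 and 75 of 181 cells. Within clusters the ratio was smaller, at 1.21 (1.04 to 1.40) in the *Selp*-led, 1.21 (0.976 to 1.49) in the *Cytl1*-led and 1.14 (0.568 to 2.12) in the *Gpihbp1*-led cluster. The *Gpihbp1*-led cluster, where *Bgn* was low, held 292 of the 472 Ctrl cells and 96 of the 181 dKO cells. *Dcn* was at 40.1 and 95.5 CPM in EC-like cells, but 39 of the 84 dKO UMIs were in 1 cell, and without the top cell of each library its ratio was 1.33 (0.919 to 1.91). Both members counted were at least 1.5-fold apart, against 11.8% of the 4816 genes counted in EC-like cells.

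MuSC-like cells, the class in which *Yy1* was deleted, numbered 122 in Ctrl and 30 in dKO and had low SLRP levels. The sum was 310 CPM in Ctrl and 121 CPM in dKO, a ratio of 0.392 (0.312 to 0.486). *Bgn* was at 97.8 CPM in Ctrl (242 UMIs in 68 of 122 cells) and 23.5 CPM in dKO (18 UMIs in 10 of 30 cells), a ratio of 0.240 (0.140 to 0.387). *Ogn* was at 71.9 CPM (178 UMIs in 57 cells) and 19.6 CPM (15 UMIs in 6 cells), a ratio of 0.272 (0.149 to 0.461). Without the top cell of each library these ratios were 0.192 and 0.188. Set against MO/MP-like cells in CPM, *Bgn* in MuSC-like cells was 3.78-fold (3.19 to 4.47) in Ctrl and 1.25-fold (0.724 to 2.04) in dKO. *Ogn* was 16.4-fold (12.1 to 22.5) and 4.57-fold (2.33 to 8.53). In dKO the median depth was 12142 UMIs in MuSC-like and 6831 UMIs in MO/MP-like cells. By count, dKO had 18 *Bgn* UMIs over 30 MuSC-like cells and 162 over 1124 MO/MP-like cells. CPM folds between these classes therefore do not settle whether a gene was above background. The source of the SLRP UMIs in MO/MP-like cells was not tested. *Dcn* was at 99.0 and 49.5 CPM, but 1 Ctrl cell held 156 of the 245 Ctrl UMIs, and without the top cells its ratio was 0.886 (0.534 to 1.41). In dKO *Dcn* was at 1.02-fold (0.710 to 1.42) the MO/MP-like level. *Prelp*, with 58 and 15 UMIs and so not counted, was at 23.4 and 19.6 CPM (ratio 0.834, 0.439 to 1.49), 9.25-fold and 7.69-fold the MO/MP-like level. All 3 members counted were at least 1.5-fold lower, where 21% of 4306 genes were 1.5-fold apart in either direction. In cells thinned to 2000 UMIs, *Ogn* was found in 13.8% (8.09 to 21.4) of Ctrl and 6.67% (0.818 to 22.1) of dKO MuSC-like cells, against 0.79% and 1.2% of MO/MP-like cells. The thinned shares of *Bgn* were 18.1% (11.6 to 26.3) and 6.67% (0.818 to 22.1), so the shares of both genes had overlapping intervals. Lower in dKO as well were the 14 FAP markers, which summed to 316 and 188 CPM in MuSC-like cells with 2 markers at 0 in each library, and the 15 MO/MP markers, at 476 and 116 CPM. The 7 myocyte markers were higher, at 2171 and 3243 CPM, as were the 7 cell cycle genes, at 608 and 897 CPM. Their part in the SLRP values was not tested.

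FAP-like cells were not uniform in their SLRPs. Clustered on their own, without SLRP genes, they gave 7 sub-clusters, named here by their leading gene. The largest was led by *G0s2* with *Mest*, *Ptn* and *Sfrp2* (370 Ctrl and 298 dKO cells). The next was led by *Il1rl1* with *Cxcl5*, *Inhba* and *Timp1* (175 and 211 cells), and another by *Zfp36* with *Atf3*, *Fos* and heat shock genes, which respond quickly to stress (168 and 186 cells). The others were led by *Clu* with *Comp* (136 and 195 cells), *Dmkn* with *Dpp4* (124 and 143 cells), *Fmo2* with *Gdf10* (91 and 98 cells) and *Tenm2* (16 and 10 cells).

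The summed SLRP level was lowest in the *Il1rl1*-led cells, at 8425 CPM in Ctrl and 8361 CPM in dKO, and was 19602 and 20471 CPM in the *G0s2*-led cells. *Dcn* showed the same contrast, at 3857 and 4285 CPM in *Il1rl1*-led cells against 10233 and 11847 CPM in *G0s2*-led cells. The *Il1rl1*-led cells were the deepest, with a median of 22040 UMIs, but they also had fewer *Dcn* UMIs per cell, 85.7 and 96.8 against 141 and 149. *Dmkn*-led cells, which had ample *Dcn* (10255 and 10769 CPM), stood out for low *Bgn*. *Bgn* was at 678 and 563 CPM in them against 4359 and 3836 CPM in *G0s2*-led cells, and *Fmod* was at 6.10 and 3.19 CPM against 76.7 and 80.5 CPM. *Lum* was lower in them too, at 451 and 324 CPM against 1687 and 1412 CPM in *G0s2*-led cells. So was *Podn*, at 79.3 and 59.3 CPM against 236 and 238 CPM. *Ogn* was high in the same *Dmkn*-led cells, at 1044 and 1321 CPM, so not all SLRPs were low there. *Aspn* was highest in the *G0s2*-led and *Clu*-led cells, at 1774 and 1485 CPM in Ctrl and 1421 and 1016 CPM in dKO. *Fmo2*-led cells had a high *Dcn* level, 13039 and 12213 CPM, with low *Aspn*, 400.0 and 405 CPM, and a median depth of only 2111 UMIs. The few *Tenm2*-led cells, whose leading genes also held *Cldn1* and *Cdh19*, shared *Tenm2* and *Cldn1* with the leading genes of perineurial-like cells. They had the highest *Dcn* of the sub-clusters, 26481 and 28802 CPM, and no *Fmod* UMI in either library, where a count of 0, taken as a limit of 3 counts, allows a level of up to 21.6 and 41.2 CPM.

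**Figure D4:**
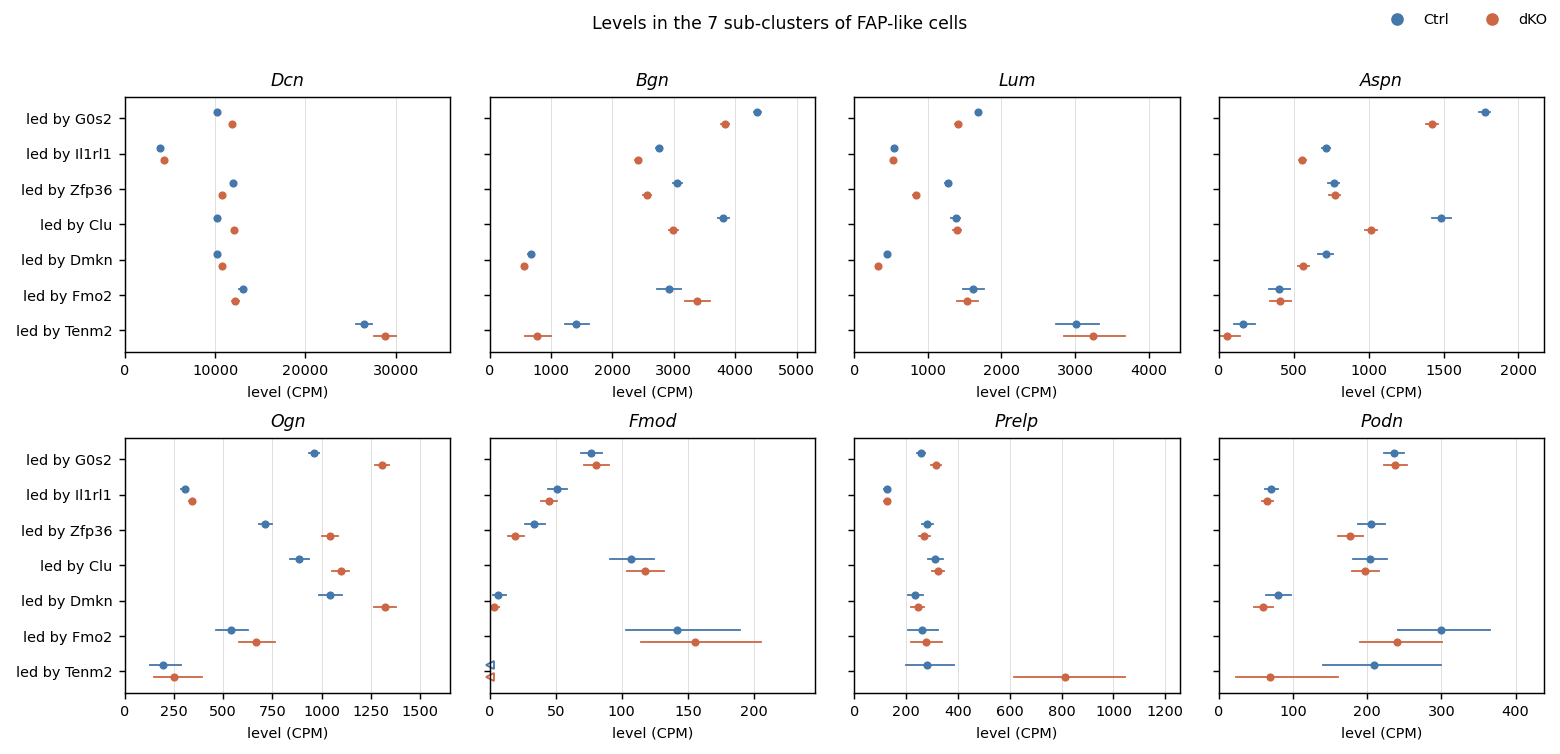
Level of 8 SLRPs in 7 sub-clusters of FAP-like cells, in CPM on linear axes from 0; blue is Ctrl, orange is dKO, lines are 95% Poisson intervals and open triangles mark 0 UMIs. *Dcn* is lowest in the *Il1rl1*-led cells in both libraries, *Bgn* is lowest in the *Dmkn*-led cells among sub-clusters of at least 30 cells, and *Ogn* in dKO lies above Ctrl in each sub-cluster.

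The dKO to Ctrl ratio was also taken within sub-clusters, since the *G0s2*-led cells made up 34.3% of FAP-like cells in Ctrl and 26.1% in dKO, and the *Clu*-led cells 12.6% and 17.1%. *Ogn* was higher in dKO in 6 of 6 sub-clusters with at least 100 UMIs, with ratios of 1.13 to 1.46 and every interval above 1. Coarser splits were less even. At sub-clustering resolution 0.2 the *Ogn* ratio was 1.16 (0.869 to 1.54) in *Hhip*-led cells and 1.71 (1.44 to 2.04) in *Clu*-led cells, and in the *Cxcl5*-led cluster of the whole sample it was 1.05 (0.990 to 1.11). *Bgn* was lower in 6 of 7, down to 0.545 (0.398 to 0.737) in the few *Tenm2*-led cells, and higher, at 1.16, in the *Fmo2*-led cells. *Lum* was lower in 5 of 7, with 3 intervals below 1 and the lowest ratio, 0.657 (0.620 to 0.695), in *Zfp36*-led cells. *Fmod* had a ratio of 0.575 in the same cells, but 1 cell held 49 of its 81 Ctrl UMIs, against 47 UMIs in all of dKO. *Aspn* was lower in 4 of 6, with ratios of 0.684 to 1.01 over the 6. In the *Cxcl5*-led cluster of the whole sample, *Aspn* was at 1278 CPM in Ctrl and 729 CPM in dKO, a ratio of 0.570 (0.549 to 0.592). In the *Il1rl1*-led sub-cluster, whose leading genes also held *Cxcl5*, the *Aspn* ratio was 0.778 (0.738 to 0.821). At resolution 0.2 it was 0.747 (0.718 to 0.778) in *Il1rl1*-led cells. Whether *Aspn* passed 1.5-fold thus depended on how these cells were split. *Dcn* was higher in 5 of 7 and lower in 2, each with an interval apart from 1. *Podn* was lower in 5 of 6, with 1 interval below 1. The sub-clusters share the same 2 pools of mice and are not replicates of the comparison.

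The little *Fmod* of FAP-like cells was concentrated in few cells. Cells with at least 10 *Fmod* UMIs were 21 of the Ctrl and 22 of the dKO FAP-like cells, 1.94% and 1.93% of the class, and held 63.4% and 72.8% of its *Fmod* UMIs. In these cells the 7 tenocyte markers summed to 9128 and 8322 CPM, against 1979 and 1792 CPM in the other FAP-like cells. Most of each sum was *Thbs4*, at 8430 and 6324 CPM against 1876 and 1617 CPM. *Tnmd* (tenomodulin, a tendon marker) was at 132 and 537 CPM against 23.0 and 28.0 CPM, and *Pdgfra*, the FAP receptor, at 196 and 194 CPM against 358 and 320 CPM. Their median depth was 21189 and 16099 UMIs, against 11571 and 11771 UMIs.

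Cycling FAP-like cells, 38 in Ctrl and 33 in dKO, had less SLRP and differed more between libraries. *Dcn* was at 2740 and 2503 CPM, 3.30-fold and 3.72-fold below the other FAP-like cells, while *Bgn* at 2930 and 2372 CPM was nearer to theirs. *Aspn* was at 896 CPM in Ctrl and 352 CPM in dKO, a ratio of 0.393 (0.350 to 0.440). *Prelp* had a ratio of 0.445 (0.345 to 0.571), *Podn* 0.473 and *Fmod* 6.80 (4.61 to 10.3). Of the 197 dKO *Fmod* UMIs, 88 and 78 lay in 2 cells, and Ctrl had 30 in all. The *Fmod* ratio thus rests on these 2 cells. In all, 4 of the 8 members counted, *Fmod* among them, were at least 1.5-fold apart, against 17.1% of the 3563 genes counted.

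Genes that make, bind or degrade SLRPs and their ligands were followed in 7 lists of 74 genes, chosen by function: other SLRPs, enzymes of chondroitin and dermatan sulfate chains, enzymes of keratan sulfate chains, tyrosine sulfation enzymes, collagens, proteases that cleave SLRPs, and ligands or receptors of SLRPs. In FAP-like cells 59 of them had at least 100 UMIs, and 2 were 1.5-fold apart, where 5.7% of all genes counted were. Both were lower in dKO: *Col6a3*, a chain of the microfibrillar collagen that binds decorin and biglycan, was at 1695 CPM in Ctrl and 1028 CPM in dKO (ratio 0.606; 0.594 to 0.619), and *Ccn4*, a matricellular protein that binds decorin, was at 104 and 65.9 CPM (ratio 0.633). None of the 18 chondroitin and dermatan sulfate enzymes counted was 1.5-fold apart. The 11 collagens counted had a median log2 ratio of -0.40, against -0.06 over all genes.

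In tenocyte-like cells 39 of the 74 were counted and 4 were 1.5-fold apart, where 6.02% of all genes counted were. The collagenase gene *Mmp13* had a ratio of 4.95, but 807 of its 810 dKO UMIs came from 1 cell. *Mmp3*, a stromelysin that can cleave decorin, had a ratio of 0.349 with 278 of its 418 Ctrl UMIs in 1 cell, and the cartilage collagen *Col2a1* had 0.222 with 90 of 178 Ctrl UMIs in 1 cell. *Col14a1*, a collagen that binds decorin on the fibril surface, was at 66.2 and 135 CPM (ratio 2.05). In smooth muscle/pericyte-like cells 20 were counted, 3 at least 1.5-fold higher and 7 at least 1.5-fold lower in dKO, where 23.8% of all genes counted were apart in either direction. *Adamts4*, an aggrecanase that can cleave biglycan and fibromodulin, was at 1307 and 2399 CPM (ratio 1.84, 1.65 to 2.04). *Kdr*, an endothelial receptor, was at 283 and 32.5 CPM and is itself among the EC markers summed above. In MuSC-like cells 19 were counted and 10 were at least 1.5-fold lower in dKO, where 21% of all genes counted were apart in either direction. They included 6 of 7 collagens, for example *Col1a2* at 573 and 169 CPM, and the summed FAP markers of these cells, at 316 and 188 CPM, were lower as well. In cycling FAP-like cells 35 were counted, 3 at least 1.5-fold higher and 9 at least 1.5-fold lower in dKO, where 17.1% of all genes counted were apart in either direction. The lower genes included 6 of 11 collagens, and the higher ones were the proteases *Mmp13*, *Adamts4* and *Adamts5*. In EC-like cells 23 were counted, 3 higher and 5 lower, where 11.8% of all genes counted were apart.

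Across 12 classes of at least 30 cells in both libraries, 24 points in all, each SLRP had its own set of like genes by Pearson correlation of log2(CPM + 1) over 9387 genes. Points of one library can share depth and free RNA, and classes share lineage, so the values are descriptive. *Fmod* was most like *Col11a1* (0.96) and the cartilage matrix genes *Cilp2* and *Matn4*, and *Kera* most like *Wif1* (0.95), *Chad* and *Cilp2*. *Omd* was most like the tendon gene *Tnmd* (0.96). *Dcn* was most like *Igfbp6* (0.98), *Lum* most like *Rbp4* (0.97), *Podn* most like *Lrrn4cl* (0.96) and *Bgn* most like *Scara3* (0.97). *Aspn* was most like *C1qtnf2*, *Bmp5* and *Nox4* (each 0.96), *Ogn* most like *Col1a2* (0.94) and *Prelp* most like *Gpx3* (0.94). Among the 45 pairs of members, *Dcn* and *Lum* were the most alike (0.95), then *Fmod* and *Omd* (0.93), and *Kera* and *Podn* the least (0.44).

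Of the 10 members, 6 lie in 2 gene clusters, which allows their levels to be set against their position (GRCm38, GENCODE annotation). *Dcn* (chr10:97479609-97518143), *Lum* (chr10:97565128-97572703) and *Kera* (chr10:97606879-97613692) follow each other on the forward strand, 47.0 and 34.2 kb apart. *Aspn* (chr13:49544443-49567565), *Omd* (chr13:49582462-49592822) and *Ogn* (chr13:49608046-49624501) lie 14.9 and 15.2 kb apart. *Prelp* (chr1:133910304-133921414) lies 116 kb from *Fmod* (chr1:134037254-134048277) on the opposite strand, and *Bgn* (chrX:73483602-73495933) and *Podn* (chr4:108014791-108096445) stand alone. Neighbours were not always alike, although the adjacent *Dcn* and *Lum* were the most alike pair above. *Lum* and *Kera* are adjacent, yet *Lum* was 2.33 times higher in FAP-like than in tenocyte-like cells in Ctrl while 95.3% of *Kera* UMIs were in tenocyte-like cells. *Aspn*, *Omd* and *Ogn* are adjacent, yet *Aspn* alone among them was high in smooth muscle/pericyte-like cells (901 CPM in Ctrl, against 34.0 CPM for *Ogn* and 2 *Omd* UMIs).

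The 250 bases before the start of the chromosome 13 trio are shown for these differences between neighbours, and those of *Fmod* as the most abundant member held mainly by tenocyte-like cells. They are RefSeq promoters of GRCm38.p6, 5′ to 3′ on the forward strand, on which all 4 genes lie, at chr13:49544193-49544442 (*Aspn*), chr13:49582212-49582461 (*Omd*), chr13:49607765-49608014 (*Ogn*) and chr1:134037004-134037253 (*Fmod*). Capitals mark matches, on either strand, to any of the motifs searched.
Aspn: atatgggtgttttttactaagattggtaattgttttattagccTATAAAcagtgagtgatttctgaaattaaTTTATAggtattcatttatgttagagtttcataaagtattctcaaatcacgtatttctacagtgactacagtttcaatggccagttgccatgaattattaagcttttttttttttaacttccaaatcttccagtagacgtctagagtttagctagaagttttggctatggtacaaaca
Omd: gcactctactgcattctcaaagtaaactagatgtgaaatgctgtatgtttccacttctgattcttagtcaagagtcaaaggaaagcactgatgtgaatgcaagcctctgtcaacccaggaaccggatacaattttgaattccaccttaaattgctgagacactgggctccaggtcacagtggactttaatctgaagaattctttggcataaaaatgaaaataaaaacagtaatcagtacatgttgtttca
Ogn: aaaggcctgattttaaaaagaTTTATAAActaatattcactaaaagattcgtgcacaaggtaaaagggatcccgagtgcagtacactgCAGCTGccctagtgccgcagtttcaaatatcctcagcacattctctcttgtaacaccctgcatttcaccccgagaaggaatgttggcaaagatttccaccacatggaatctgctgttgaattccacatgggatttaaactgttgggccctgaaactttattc
Fmod: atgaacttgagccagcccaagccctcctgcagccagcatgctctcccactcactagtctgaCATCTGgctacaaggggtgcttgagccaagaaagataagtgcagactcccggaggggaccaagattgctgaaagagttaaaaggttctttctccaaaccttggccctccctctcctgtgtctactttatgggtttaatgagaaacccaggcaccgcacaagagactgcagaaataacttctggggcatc

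The motifs were TATAAA (found in 12.4% of 32817 RefSeq promoters of this length), the E-boxes CAGATG (14.5%) and CAGCTG (13%), TGAGTCA (4.46%), GGGCGG (32.7%) and the CArG box (1.47%). *Aspn* held 2 TATAAA matches, 207 and 178 bases before its start, one on each strand. *Ogn* held 2 overlapping TATAAA matches on opposite strands, 229 and 227 bases before its start, and 1 CAGCTG. *Fmod* held 1 CAGATG, on the reverse strand, 189 bases before its start, and *Omd* held none of the motifs in this window. The trio was low in G and C bases, with 30% in *Aspn*, 38.4% in *Omd* and 42% in *Ogn*, against a median of 52.4% over all promoters and 51.2% in *Fmod*. RefSeq promoters were matched for 8 of the 10 members, all but *Dcn* and *Lum*. These are letters in a window, not measured binding.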

How the data were processed

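Living mononuclear cells were sorted from hind limb muscle and run on a 10x Chromium platform, 1 library per group (3 mice pooled). The authors deposited raw counts (UMIs per gene and barcode). Their processing notes name Cell Ranger 7.0.0, Seurat 4.3.0 and mm10; the deposited matrix headers name Cell Ranger 3.0.2. No mitochondrial symbol is in the files, so no mitochondrial filter could be applied. The barcodes in the files were 4527 and 3483, and 4335 and 3329 of them had at least 500 genes. The study's text gives these same counts for cells left after doublet removal, and one of its legends another Ctrl count, so which cells it used is not settled here. Library totals were 45556596 and 33815155 UMIs.

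Scrublet's own threshold marked only 12 and 20 cells, so the 7.5% of cells with the highest scores (325 and 250) were removed. Cells were integrated and clustered with Seurat 5.3.0 (R 4.3.3; 2000 variable genes, 40 dimensions, resolution 0.8) without 18 SLRP genes. A cluster was named where at least 3 markers of a class were enriched; clusters in which 50% of cells carried UMIs of at least 3 cycle genes were called cycling, a rule set after seeing the clusters. FAP-like cells were clustered again (20 dimensions, resolution 0.4). UMIs were summed per class and library (numpy 2.4.6, scipy 1.17.1, scanpy 1.11.5); levels carry exact Poisson intervals, shares exact Clopper-Pearson intervals and ratios the exact interval of a ratio of Poisson counts (95%). Ratios were counted for genes with at least 100 UMIs over both libraries. The sums and intervals were run on simulated Poisson counts per class, which lack the clumping of UMIs in single cells seen here. That run does not show how well the intervals hold for clumped genes. The like genes were the 3 genes outside the members with the highest correlation, among genes with at least 500 UMIs. The members, marker lists and gene lists were chosen with earlier results of these data known. Alternatives are given in the closing section. Cells of a pool could not be assigned to mice, so no test between groups was made.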

Additional observations from a re-analysis of the deposited data

Results flagged for a closer look

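*Bgn* and *Aspn* had dKO to Ctrl ratios on opposite sides of 1 in the 2 main SLRP-bearing classes. *Bgn* was at 0.816 (0.806 to 0.827) in FAP-like cells and at 1.18 (1.12 to 1.24) in tenocyte-like cells. *Aspn* was at 0.746 (0.730 to 0.764) in FAP-like cells and at 1.06 (1.00 to 1.12) in tenocyte-like cells. With 1 library per group the difference between the classes was not tested. Without the cell with the most UMIs of the gene in each library, the ratios were 0.817 and 1.16 for *Bgn* and 0.763 and 1.02 for *Aspn*, and the last had an interval of 0.963 to 1.08. Over all alternatives *Aspn* in tenocyte-like cells ranged from 0.957 to 1.12, and *Bgn* in the same cells stayed above 1.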

How the results depend on the processing

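No paired analysis was possible because each group is 1 library. The summed FAP-like ratio of 0.956 was 0.943 as a mean of cell CPM, 0.936 after thinning and 0.998 when scaled by the median gene. The tenocyte-like ratio of 1.11 was 1.09 with no doublets removed and 1.07 as a mean of cell CPM. In tenocyte-like cells 1 member was 1.5-fold apart as a mean of cell CPM (*Lum*, 0.556), 1 without the top cell (*Lum*, 0.545; chosen after seeing the data) and 2 after thinning (*Lum*, 0.458, and *Kera*, 1.62). In smooth muscle/pericyte-like cells it was 2 with no doublets removed (*Dcn*, 1.54, and *Ogn*, 0.545, which reached 100 UMIs there) and 1 with no integration (*Aspn*, 0.606). After thinning, *Lum* had 137 and 38 UMIs in tenocyte-like cells, and *Kera* 119 and 117. No share of all genes past 1.5-fold is given for these alternatives, so the counts have no background beside them. The FAP share of SLRP UMIs, 78.0% in Ctrl and 83.6% in dKO, was 80.1% and 85.5% with no doublets removed, 81.5% and 85.7% with at least 200 genes per cell, 78.3% and 83.8% with no integration, 81.3% and 86.3% at resolution 0.4, 81.3% and 86.3% with SLRP genes kept in the clustering, 75.1% and 81.4% after thinning, and 78.2% in Ctrl at resolution 1.2. No separate cycling FAP-like class was found with no doublets removed, at 200 genes, at resolution 0.4 or with SLRP genes kept. Of 20 member and class pairs, 15 stayed on one side of 1 throughout. *Fmod* in FAP-like cells ranged from 0.928 to 1.11, and *Dcn* was 0.979 as a mean of cell CPM and 0.968 after thinning. *Prelp* in FAP-like cells ranged from 0.956 to 1.11. Depth limits *Kera* and *Omd* in FAP-like cells and every member but *Aspn* and *Bgn* in smooth muscle/pericyte-like cells.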
